A study of Mus musculus with 8 samples.

Results

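The 10 genes described here encode alpha and beta tubulin isotypes, 4 alpha (Tuba1a, Tuba1b, Tuba1c and Tuba4a) and 6 beta (Tubb2a, Tubb2b, Tubb3, Tubb4b, Tubb5 and Tubb6). They were chosen by gene symbol out of 19505 genes with a named probe. A probe here means 1 row of values, in which the separate array probes of a transcript are combined. Each of the 10 had 1 such row, so choosing the brightest by its mean over the 8 arrays was not needed. The family was proposed with its age differences in these same arrays known. Levels were measured in kidney total RNA of NZBWF1 mice, an NZB by NZW hybrid used as a model of spontaneous lupus nephritis. The 4 mice aged 8 weeks (replicates 1 to 4) and the 4 aged 28 weeks (replicates 6 to 9) each gave 1 Affymetrix Clariom S Mouse array. All mice were of this 1 strain, no treatment is given in the labels, and age is the only difference that they give. The comparison asks how kidney tubulin mRNA differs between the 2 ages.

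Microtubules are hollow polymers of heterodimers of alpha and beta tubulin, and they carry vesicles, form the mitotic spindle and build the axoneme of cilia. Mammals encode each subunit in several genes, whose proteins differ mostly in their C-terminal tails, where many of the enzymes that modify tubulin act. Cells also destroy tubulin mRNA when free heterodimers are abundant, through a factor that recognizes the nascent protein. In the kidney, microtubules direct apical transport in tubule epithelium and form the primary cilium.

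Each value is on the log2 scale and was made by RMA. This method removes background, brings the arrays to a common distribution and combines the separate array probes of a transcript. Group values are mean ± SD over n = 4 arrays, and a difference is that at 28 weeks minus that at 8 weeks with its 95% interval. Each adjusted p comes from limma (Benjamini-Hochberg over the 22206 probes, threshold 0.05). Because of how the family was proposed, its age differences are a description, and p measures only the spread among these mice. Array medians lay between 5.98 and 6.14. On the first principal component, with 39.4% of the variance, 28-week replicate 7 lay at -12.9, among the younger mice (-39.5 to -7.66), and the other older mice lay at 31.8 to 59.9. All 10 markers of the proximal tubule, the main cell type of the kidney cortex, were at or above the 96.5th percentile of probe means. In RNA of a whole organ, more cells of a type and more RNA per cell cannot be told apart.

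All 10 tubulin isotypes had a higher mean at 28 weeks, as did 48.7% of all probes. The 3 Tuba1 genes and Tubb4b rose, by 2.04-fold to 3.26-fold, and Tubb5 had the largest difference but lay just outside the threshold. These 4 of 10 stand beside 0.446% of all probes called higher, and 0 of 10 were called lower, beside 0.522% of all probes. In 5 of 10 genes (the 4 and Tubb5) every 28-week array lay above every 8-week array, which held for 4.38% of all probes, and in 0 of 10 every 28-week array lay below, which held for 4.33%; the groups of 8.71% of all probes did not overlap in either direction. At an unadjusted p under 0.05, 8 of 10 were higher, beside 8.36% of all probes higher at that p and 15% in either direction. The median difference of the 10 genes was 1.18, where that of all probes was -0.01.

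**Figure D1:**
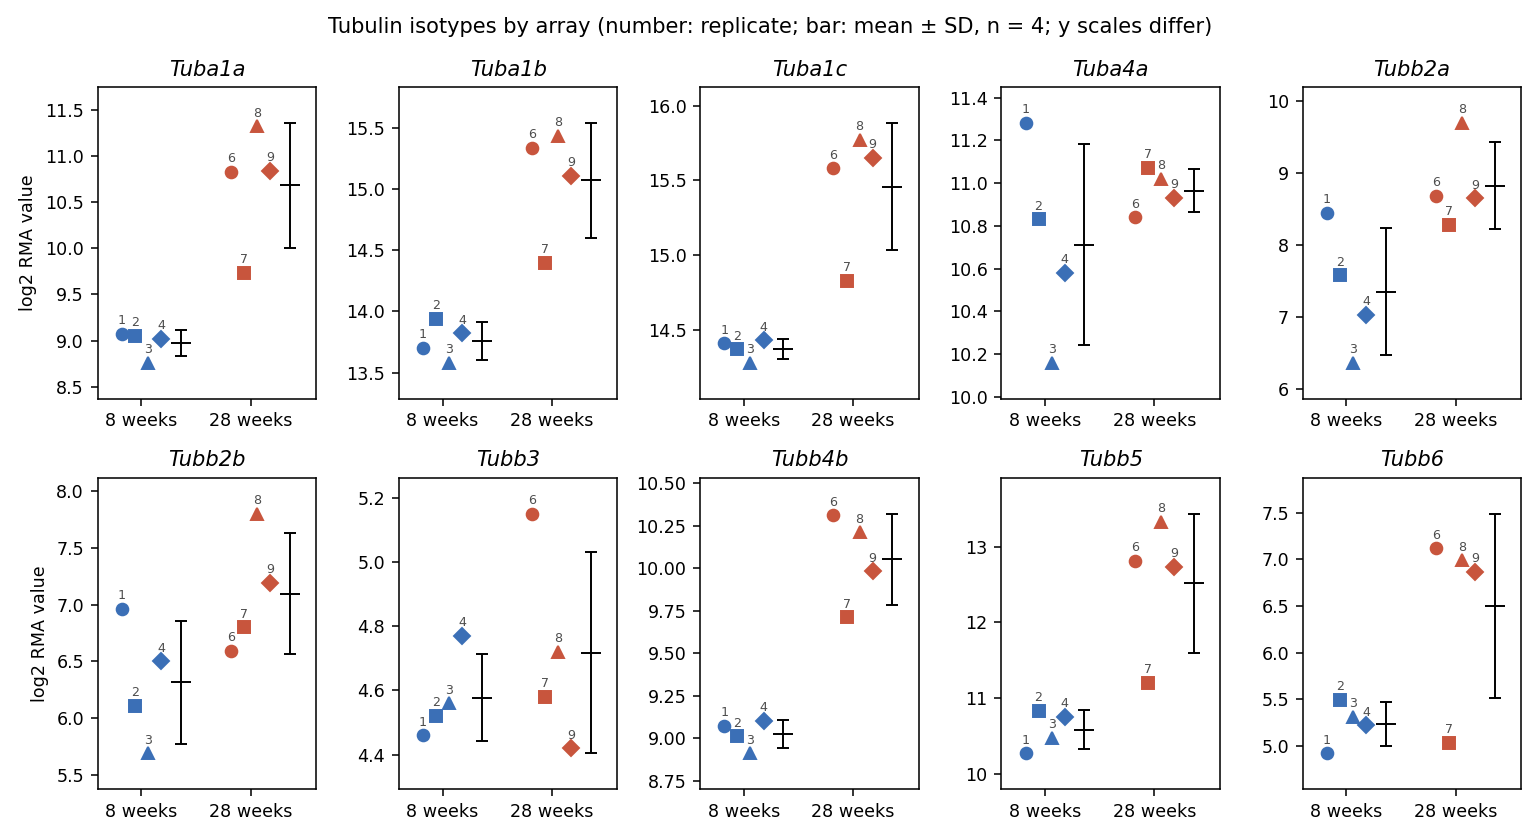
Log2 RMA value of each tubulin isotype in each array, with 8-week mice in blue and 28-week mice in red; numbers are replicates and black bars are mean ± SD (n = 4), and the y scales differ between panels. In Tuba1a, Tuba1b, Tuba1c, Tubb4b and Tubb5 the groups do not overlap and replicate 7 is the lowest of the 28-week arrays.

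Among the alpha isotypes, Tuba1a, which is best known from developing neurons, had values of 9.07, 9.05, 8.76 and 9.02 in 8-week replicates 1 to 4. In 28-week replicates 6 to 9 it had 10.83, 9.73, 11.32 and 10.84. Replicate 7 was the lowest of the older mice and still 0.66 above the highest younger mouse. The mean rose from 8.975 ± 0.14 to 10.68 ± 0.67, a difference of 1.705 (95% interval 1.06 to 2.35, 3.26-fold, adjusted p = 0.0335).

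Tuba1b, which encodes the ubiquitous alpha-1B chain, had 13.7, 13.94, 13.58 and 13.82 at 8 weeks and 15.34, 14.4, 15.44 and 15.11 at 28 weeks. The gap between the groups was 0.46, and replicate 7 was again the lowest older mouse. The mean rose from 13.76 ± 0.15 to 15.07 ± 0.47, a difference of 1.31 (0.82 to 1.81, 2.48-fold, limma adjusted p = 0.0335).

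Tuba1c, another widely expressed alpha chain, had 14.41, 14.37, 14.28 and 14.43 at 8 weeks and 15.58, 14.83, 15.77 and 15.65 at 28 weeks. The younger mice lay within 0.15 of each other, and the gap to the lowest older mouse, replicate 7, was 0.40. The mean rose from 14.37 ± 0.067 to 15.46 ± 0.43, a difference of 1.085 (0.63 to 1.54, 2.12-fold, limma adjusted p = 0.0426).

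Tuba4a encodes a chain that ends without the C-terminal tyrosine that most other alpha chains carry. It had 11.28, 10.83, 10.16 and 10.58 at 8 weeks and 10.84, 11.07, 11.02 and 10.93 at 28 weeks. The older mice lay inside the range of the younger ones, and the difference of 0.25 (-0.23 to 0.74) did not pass (limma adjusted p = 0.668).

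Among the beta isotypes, Tubb4b, a broadly expressed chain that is also abundant in ciliary axonemes, had 9.07, 9.01, 8.91 and 9.1 at 8 weeks and 10.31, 9.71, 10.21 and 9.98 at 28 weeks. The older mice were all at least 0.61 above the highest younger mouse. The mean rose from 9.02 ± 0.084 to 10.05 ± 0.27, which made it the only beta isotype past the threshold (difference 1.03, 0.68 to 1.38, 2.04-fold, limma adjusted p = 0.0272), and its adjusted p was the smallest of the 10.

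Tubb5, the main constitutive beta chain and one that dividing cells use in quantity, had 10.27, 10.83, 10.47 and 10.75 at 8 weeks and 12.81, 11.2, 13.33 and 12.73 at 28 weeks. Replicate 7 lay 0.37 above the highest younger mouse and 1.53 or more below the other older mice. The means were 10.58 ± 0.26 and 12.52 ± 0.92. The difference of 1.94 (1.08 to 2.79, 3.83-fold) was the largest of the 10 and had an adjusted p of 0.0501 in limma. Under 8 alternatives that kept all 8 arrays its limma adjusted p was between 0.0193 and 0.0502, and 6 of the 8 called it. Both filters that left out dim probes, and so adjusted over fewer probes, were among the 6.

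Tubb6, a minor beta chain found in many cell types, differed from these 5 genes in replicate 7. It had 4.92, 5.49, 5.31 and 5.22 at 8 weeks and 7.12, 5.03, 6.99 and 6.87 at 28 weeks. Replicate 7 lay inside the 8-week range, while the other older mice were 1.38 or more above the highest younger mouse. Its difference was 1.27 (0.36 to 2.17, limma adjusted p = 0.166). Without replicate 7 it was 1.76 (limma adjusted p = 0.000562), in a fit that called 1237 of all probes, beside 215 with all arrays. Leaving out the 1 older mouse inside the 8-week range was bound to raise the difference. Tubb6 passed in that fit only of the 8 fits without 1 array, and its limma adjusted p was up to 0.378 in the others.

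The class II genes Tubb2a and Tubb2b, best known from neurons, varied among the younger mice more than the genes above. Tubb2a had 8.45, 7.58, 6.37 and 7.03 at 8 weeks and 8.68, 8.28, 9.69 and 8.65 at 28 weeks. Its younger mice spanned 2.08, from replicate 3 to replicate 1, and replicate 1 lay above 28-week replicate 7. The difference was 1.47 (0.52 to 2.42, 2.77-fold, limma adjusted p = 0.131). Array weights, which gave 8-week replicate 1 a weight of 0.399, put Tubb2a past the threshold (1.79, adjusted p = 0.0333). Tubb2b had 6.96, 6.11, 5.69 and 6.5 at 8 weeks and 6.59, 6.8, 7.8 and 7.19 at 28 weeks, with replicate 1 again the highest and replicate 3 the lowest younger mouse. Its difference of 0.78 (0.08 to 1.48) had a limma adjusted p of 0.274.

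Tubb3, the beta chain of neurons, had a dim probe (30.7th percentile of probe means), with 4.46, 4.52, 4.56 and 4.77 at 8 weeks and 5.15, 4.58, 4.72 and 4.42 at 28 weeks. Only replicate 6 lay above the younger mice. The difference was 0.14 (-0.25 to 0.53, limma adjusted p = 0.795), and it was -0.0042 without replicate 6. Of 10 measured markers of neurons and Schwann cells 0 passed the threshold, beside 0.968% of all probes, at a median difference of 0.08. An unadjusted p under 0.05 was reached by 1, beside 15% of all probes. Syp, a synaptic vesicle gene, had 0.62 (limma adjusted p = 0.115), and Elavl3, a neuronal RNA-binding protein gene, had 0.32 (adjusted p = 0.345). In these 2 of 10 every 28-week array lay above every 8-week array, which held for 4.38% of all probes.

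**Figure D2:**
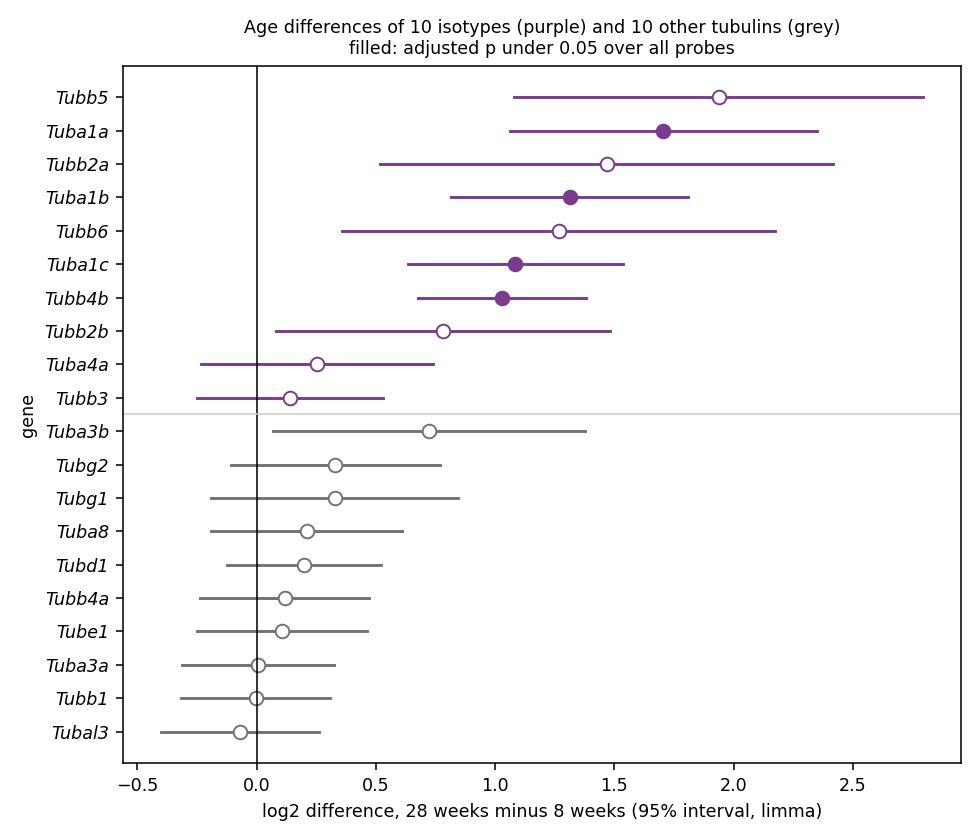
Log2 difference between the ages (x axis, with 95% interval) for the 10 isotypes (purple) and 10 other tubulin genes (grey), filled where the adjusted p was under 0.05. The 4 filled genes are Tuba1a, Tuba1b, Tuba1c and Tubb4b. Among the isotypes the intervals of Tuba4a and Tubb3 include 0, and among the other tubulins all do except that of Tuba3b.

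The calls depended on single arrays. Without 28-week replicate 7, 6 isotypes passed (the 4 with Tubb5 and Tubb6), where 3.63% of all probes were called higher; 0 were called lower, beside 1.95%. Without 8-week replicate 1 only Tubb4b passed, and without 8-week replicate 2, 3 or 4, or 28-week replicate 6, 8 or 9, 0 passed. The number of all probes called fell at the same time, from 215 to between 25 and 94. Over the 8 fits without 1 array the difference lay between 1.49 and 2.02 for Tuba1a, between 1.19 and 1.54 for Tuba1b, between 0.98 and 1.29 for Tuba1c and between 0.94 and 1.14 for Tubb4b. Their highest adjusted p, each without 28-week replicate 9, were 0.131, 0.126, 0.155 and 0.0991. All 4 genes were called under each of the 8 alternatives that kept all 8 arrays and the threshold of 0.05. Some of these could hardly have ended a call. The mean of all rows of a gene left these genes as they were, since each had 1 probe. Both filters that left out dim probes kept these genes and adjusted over fewer probes.

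How the isotypes varied among mice of 1 age was described by their correlations. After the mean of each age was subtracted, Pearson's r over the 8 arrays was between 0.81 and 0.98 for the 10 pairs among Tuba1a, Tuba1b, Tuba1c, Tubb4b and Tubb5. Tubb6 had r between 0.80 and 0.95 with these 5 genes. Replicate 7 held most of the spread of Tubb6 among the older mice (5.03, beside 6.87 to 7.12 in the others). The r of Tubb6 without that array is not given here. Without replicate 7, r among the 5 over 7 arrays was between 0.24 and 0.91, with a median of 0.61. For Tubb2a and Tubb2b, the pair of class II genes, r was 0.84, and 0.83 without replicate 7, and for Tubb2a and Tuba4a it was 0.81. Other pairs were low or negative. Over all 45 pairs of isotypes, with all 8 arrays, r was between -0.30 (Tubb3 and Tuba4a) and 0.98, with a median of 0.49. Tubulin genes are close paralogs, and the positions of their probes were not used here, so probes of different isotypes may share signal. These correlations are descriptive, and the points share their arrays.

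The promoters of the 5 isotypes whose groups did not overlap are shown so that the windows of the genes with separate age groups can be compared. Each window is the 250 bases before the RefSeq start of the gene (GRCm38.p6), printed 5′ to 3′ on the strand of the gene, with capitals for CCAAT or its reverse complement ATTGG. The windows are chr2:25224703-25224952 (minus strand) for Tubb4b, chr17:35838302-35838551 (minus) for Tubb5, chr15:98953502-98953751 (minus) for Tuba1a, chr15:99029641-99029890 (plus) for Tuba1c and chr15:98934391-98934640 (minus) for Tuba1b.
Tubb4b: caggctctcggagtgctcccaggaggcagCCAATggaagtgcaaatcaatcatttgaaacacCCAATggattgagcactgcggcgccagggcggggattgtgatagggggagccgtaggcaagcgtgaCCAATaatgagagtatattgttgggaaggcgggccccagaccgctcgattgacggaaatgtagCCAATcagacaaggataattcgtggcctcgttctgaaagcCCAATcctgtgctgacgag
Tubb5: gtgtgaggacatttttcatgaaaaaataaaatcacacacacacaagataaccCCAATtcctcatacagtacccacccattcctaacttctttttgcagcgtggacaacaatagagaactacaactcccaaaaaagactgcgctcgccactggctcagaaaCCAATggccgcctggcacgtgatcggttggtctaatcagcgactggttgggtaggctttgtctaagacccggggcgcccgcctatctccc
Tuba1a: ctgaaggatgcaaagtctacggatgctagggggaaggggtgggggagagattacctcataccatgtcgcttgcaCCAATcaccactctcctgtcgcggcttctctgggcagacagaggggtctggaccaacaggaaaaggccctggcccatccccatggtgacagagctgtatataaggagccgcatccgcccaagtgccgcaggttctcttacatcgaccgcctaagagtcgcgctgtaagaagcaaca
Tuba1c: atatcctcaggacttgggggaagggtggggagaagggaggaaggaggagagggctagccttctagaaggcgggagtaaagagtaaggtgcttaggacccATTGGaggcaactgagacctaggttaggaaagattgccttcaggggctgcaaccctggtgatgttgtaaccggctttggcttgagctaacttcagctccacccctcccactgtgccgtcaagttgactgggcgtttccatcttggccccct
Tuba1b: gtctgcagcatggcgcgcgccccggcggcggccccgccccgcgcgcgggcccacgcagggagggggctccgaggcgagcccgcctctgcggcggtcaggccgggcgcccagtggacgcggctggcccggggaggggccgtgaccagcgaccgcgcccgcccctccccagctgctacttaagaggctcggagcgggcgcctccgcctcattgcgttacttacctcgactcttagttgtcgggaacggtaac

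CCAAT, the core of the box bound by the NF-Y complex, was counted on both strands with overlapping matches allowed. It occurred 5 times in the Tubb4b window, with its first base 221, 188, 122, 59 and 19 bases before the start. It occurred 2 times in the Tubb5 window, 1 time each in those of Tuba1a and Tuba1c, and 0 times in that of Tuba1b. Of 32851 promoter windows of the same length 33.8% held at least 1 match and 0.213% held 5 or more. Of the 8 isotypes with a window in the table, 5 held CCAAT (the 4 above and Tubb3, whose age difference did not pass), 6 held the GC box core GGGCGG (32.7% of all windows) and 1, Tubb2a, held the TATA box core TATAAA (12.4% of all windows), each searched on both strands. These matches are descriptions of the letters.

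The other tubulin genes were less common alpha and beta chains and the gamma, delta and epsilon tubulins of centrosomes and basal bodies. They gave 0 of 10 calls, beside 0.968% of all probes, and 1 had an unadjusted p under 0.05, beside 15%. Their median difference was 0.16. Tuba3b, an alpha chain of testis, had the largest, 0.72 (0.07 to 1.38, limma adjusted p = 0.278). Tubg1 and Tubg2, which encode the gamma tubulin that nucleates microtubules, differed by 0.33 (adjusted p = 0.586) and 0.33 (adjusted p = 0.498). The next by size were Tuba8 (0.21, adjusted p = 0.665), Tubd1 (0.20, 0.601), Tubb4a (0.12, 0.813) and Tube1 (0.11, 0.833). Tubal3 differed by -0.07 (adjusted p = 0.895) and Tuba3a by 0.0075 (adjusted p = 0.99). Tubb1, the beta chain of platelets, differed by -0.0025 (adjusted p = 0.996), with an interval of -0.32 to 0.31.

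Genes that fold, modify or nucleate tubulin gave no call. The counts in these gene lists stand beside 0.968% of all probes past the threshold and 15% at an unadjusted p under 0.05. A positive difference was held by 48.7% of all probes. Of 23 genes of tubulin folding and autoregulation (the chaperonin, prefoldin, the tubulin cofactors and the mRNA decay factors) 0 passed, 1 had an unadjusted p under 0.05 and 10 were positive, with a median difference of -0.11. The cofactor-like gene Tbcel had -0.69 (limma adjusted p = 0.184), and the chaperonin subunit gene Cct3 had 0.25 (adjusted p = 0.407). Of 24 tubulin-modifying enzymes 0 passed, 3 had an unadjusted p under 0.05 and 10 were positive, at a median of -0.065. The deacetylase gene Hdac6 had -0.565 (limma adjusted p = 0.177) and the ligase-family gene Ttll10 had -0.40 (adjusted p = 0.211). In both, 2 of 24, every 28-week array lay below every 8-week array, which held for 4.33% of all probes. Of 17 nucleation genes 0 passed, 1 had an unadjusted p under 0.05 and 10 were positive, at a median of 0.10, with 0.56 for the augmin subunit gene Haus6 (adjusted p = 0.229) and -0.34 for Nedd1 (adjusted p = 0.437).

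Among 31 genes that bind microtubules or govern their dynamics, Map1b was the 1 gene past the threshold, beside 0.446% of all probes called higher. The median difference of the 31 was 0.125. Map1b, a structural microtubule-associated protein of growing axons, had 7.43, 7.06, 6.72 and 6.45 at 8 weeks and 9.03, 8.68, 8.3 and 8.93 at 28 weeks. Here replicate 7 lay among the other older mice. The difference was 1.82 (1.29 to 2.35, limma adjusted p = 0.0132). The call ended without 8-week replicate 3 (adjusted p = 0.0536) or 28-week replicate 9 (adjusted p = 0.0721).

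The motor and filament counts again stand beside 0.968% of all probes past the threshold. At an unadjusted p under 0.05 the share of all probes was 15%, and 48.7% had a positive difference. Of 19 mitotic spindle motors and regulators 0 passed, 11 had an unadjusted p under 0.05 and 18 had a positive difference, with a median of 0.93. The chromokinesin gene Kif4 had 1.46 (limma adjusted p = 0.105) and the midzone kinesin gene Kif23 had 1.365 (adjusted p = 0.115). Of 27 transport motor genes 0 passed and 4 had an unadjusted p under 0.05, at a median of 0.0075, with 0.55 for the dynein light chain gene Dynll1 (adjusted p = 0.274) and -0.56 for the dynactin gene Dctn1 (adjusted p = 0.278). Of 25 primary cilium genes 0 passed and 4 had an unadjusted p under 0.05, at a median of -0.04, with -0.46 for the cilium dynein gene Dync2h1 (adjusted p = 0.17) and 0.40 for Bbs5 (adjusted p = 0.22). Of 26 genes of actin and intermediate filaments 0 passed, 16 had an unadjusted p under 0.05 and 26 had a positive difference, with a median of 0.76. Actb had 0.855 (adjusted p = 0.054) and the actin cross-linker gene Flna had 2.22 (adjusted p = 0.0564). Without replicate 7, 12 of 19 spindle genes, 14 of 26 actin and intermediate filament genes, 1 of 31 binding genes (Map1b) and 0 of the folding, modifying, nucleation, transport and cilium genes were called higher, beside 3.63% of all probes. In the fits without any other 1 array, calls in all these lists together numbered 0 or 1.

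**Figure D3:**
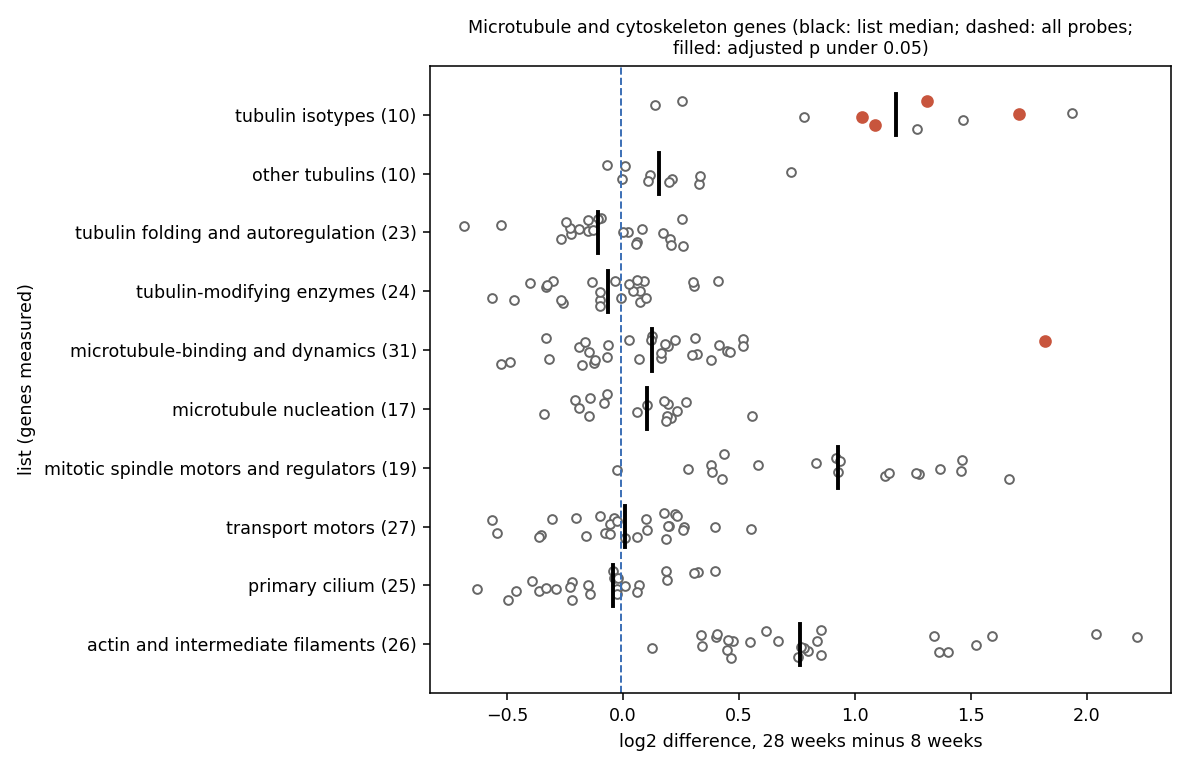
Log2 difference between the ages (x axis) for each measured gene of 10 lists (rows, with the number of genes), filled where the adjusted p was under 0.05; black bars are list medians and the dashed line is the median of all probes. The isotypes have a median of 1.18, and the spindle and actin lists lie to the right of the dashed line without a filled point.

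Markers of other cells were summarised in the same arrays. Their counts, here and in the next paragraph, stand beside 0.446% of all probes called higher and 0.522% called lower. At an unadjusted p under 0.05 the share of all probes was 15%, and 48.7% had a positive difference. Of 11 macrophage and monocyte markers 0 passed the threshold, 10 had an unadjusted p under 0.05 and 11 had a positive difference, with 4.54 for the lysozyme gene Lyz2 (adjusted p = 0.0607) and 2.525 for the complement gene C1qa (adjusted p = 0.0901). Their mean log2 distance from the 8-week mean was between -0.25 and 0.34 in the younger mice, 0.10 in replicate 7 and 2.85 to 3.6 in the other older mice. Of 8 proliferating cell markers 0 passed and 7 had an unadjusted p under 0.05, with 1.04 for Mcm5 (adjusted p = 0.0824) and 1.03 for Birc5 (adjusted p = 0.102). Their mean distance was between -0.09 and 0.08 at 8 weeks, 0.17 in replicate 7 and 1.43 to 2.10 in the others. Of 8 injured tubule markers 1 was called higher, 3 had an unadjusted p under 0.05 and 7 had a positive difference. The call was the adhesion molecule gene Vcam1 (2.62, limma adjusted p = 0.0423). It passed in 1 of the 8 fits without 1 array, that without replicate 7. The mean distance of this list was between -0.13 and 0.18, 0.11 and 1.73 to 2.75 in the same order. Of 10 proximal tubule markers 1 was called lower, 5 had an unadjusted p under 0.05 and 0 had a positive difference. The call was the anion transporter gene Slc22a6 (difference -0.91, limma adjusted p = 0.0313). It passed without 8-week replicate 2 or 28-week replicate 7 but in no other fit without 1 array. The mean distance of this list was between -0.03 and 0.03 in the younger mice, -0.16 in replicate 7 and -0.64 to -0.47 in the others.

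T cell markers had a mean distance of -0.09 to 0.08 in the younger mice, 0.15 in replicate 7 and 0.62 to 0.97 in the other older mice, with 0 of 6 past the threshold and 4 at an unadjusted p under 0.05 (Cd3e 1.085, adjusted p = 0.105; Cd3d 0.42, adjusted p = 0.203). B and plasma cell markers had -0.15 to 0.10, 0.52, and 0.43 to 2.57 in the same order, with 0 of 6 past the threshold and 3 at an unadjusted p under 0.05 (Jchain 4.77, adjusted p = 0.0971; Cd79a 0.965, adjusted p = 0.284). Endothelial markers gave 0 of 7 calls (2 at an unadjusted p under 0.05; Cdh5 0.68, Kdr -0.40) and fibroblast and pericyte markers 0 of 6 (0 unadjusted; Col3a1 1.23, Dcn 0.91). Podocyte markers gave 0 of 4 (1 unadjusted; Podxl -0.48, Wt1 -0.27) and distal nephron markers 0 of 8 (4 unadjusted; Calb1 -2.71, Slc12a1 0.99). Without replicate 7, 10 of 11 macrophage, 4 of 8 proliferating cell and 3 of 8 injured tubule markers were called higher, beside 3.63% of all probes. In the same fit Cd3e and Cd3g (2 of 6 T cell markers), Jchain (1 of 6), Cdh5 (1 of 7) and Col3a1 (1 of 6) were also called higher. Slc5a2 and Slc22a6 (2 of 10 proximal tubule markers) and Slc12a3 and Calb1 (2 of 8 distal nephron markers) were called lower, beside 1.95% of all probes. Whole marker lists were refitted without replicate 7 only. That fit called 1237 of all probes, and the fits without any other 1 array called between 25 and 94. RMA values have no zero and carry no detection call, so no marker can be said to be absent. The part of these cells in the tubulin values was not tested.

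In replicate 7 the isotypes and the markers could be read side by side. Its macrophage and injury marker means (0.10 and 0.11) lay inside the range of the younger mice. In both lists the top of that range was 8-week replicate 1 (0.34 and 0.18), and replicate 7 lay above the other younger mice. Means of replicate 7 for proliferating cells (0.17), T cells (0.15) and B and plasma cells (0.52) lay above those of all younger mice. The highest of the younger mice were 0.08, 0.08 and 0.10. For the proximal tubule the mean of replicate 7, -0.16, lay below the lowest younger mouse, -0.03. Tuba1a, Tuba1b, Tuba1c, Tubb4b and Tubb5 were 0.76, 0.64, 0.46, 0.69 and 0.62 above their 8-week means in that mouse. These 5 genes lay 0.37 to 0.66 above the highest younger mouse there. Tubb6 was at -0.21 in replicate 7, below its 8-week mean. Tubb2a was 0.92 above its own mean but inside its 8-week range. Tubb2b, Tuba4a and Tubb3 were 0.485, 0.36 and 0.0025 above theirs, also inside their 8-week ranges.

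**Figure D4:**
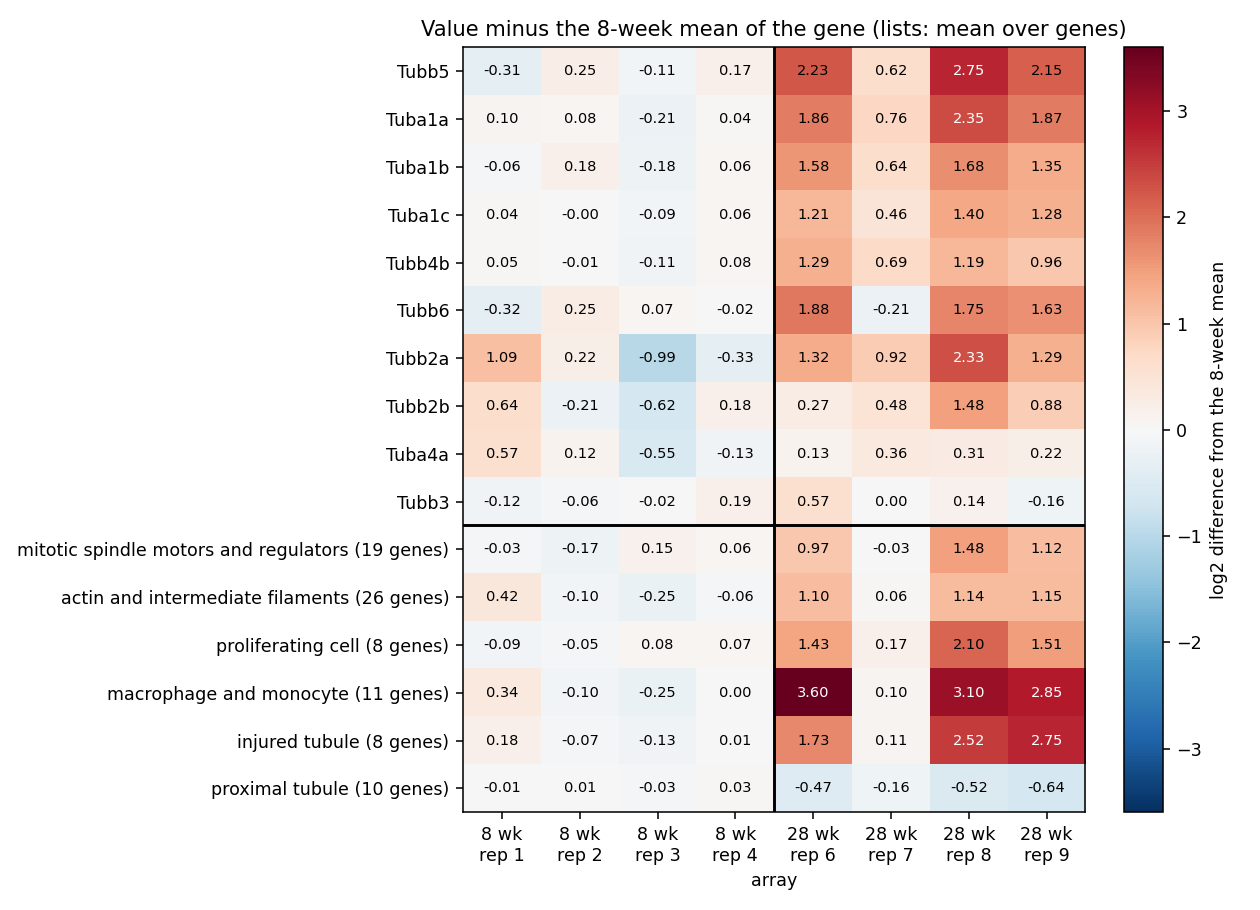
Log2 distance of each array (columns) from the 8-week mean of the gene for the 10 isotypes, and the mean of that distance over the genes of 6 lists (lower rows); red is above and blue below the 8-week mean. In the column of 28-week replicate 7, Tuba1a, Tuba1b, Tuba1c, Tubb4b and Tubb5 lie between 0.46 and 0.76, and the macrophage list is at 0.10.

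Genes whose values over the 8 arrays were most like those of single isotypes were sought among 18451 genes. For Tubb5, which had the largest difference, the 6 with the highest Pearson's r were H2-DMb2, Lgals3bp, Psmd11, Ccl3, Nfam1 and Lilrb4a, with r from 0.982 to 0.992. After the age means were subtracted r was between 0.94 and 0.987. For Tubb4b, which had the smallest p, they were Arntl, Stk10, Pfkp, Cdkn1a, Actb and Dram1, with r from 0.976 to 0.984, and from 0.76 to 0.934 after the age means were subtracted. The 2 sets share no gene, but sets of 6 out of 18451 genes need not overlap even for isotypes that vary together. Tubb5 and Tubb4b themselves had r of 0.94, and 0.81 after the age means were subtracted. The age difference enters r, and with 8 arrays many genes reach high values, so these are descriptions.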

How the data were processed

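Clariom S Mouse arrays, 1 for each of 8 mice, gave the kidney data. The deposited values are on a log2 scale and were made with RMA, per the submitters' processing notes; no version, setting or log base was found in the labels. Base 2 was taken from the range of the values, 2.31 to 19.89. RMA understates folds of dim probes. Symbols came from the platform annotation, which names 19572 of 22206 probes. All 22206 probes were fitted with lmFit and eBayes in limma 3.58.1 (R 4.3.3), 28 weeks against 8 weeks over all 8 arrays, with Benjamini-Hochberg adjustment at 0.05. No probe was filtered out, and no batch or scan date was in the sources used here. That each group is 4 mice comes from the series' design.

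The members, lists and alternatives were chosen with earlier results of these data known. Genes were named by rule: all isotypes and other tubulins, up to 4 called genes of each other list, or the 2 with the smallest p where none was called, and the 6 genes most like each of 2 isotypes. Promoter windows came from RefSeq tables. In simulated arrays with 4 against 4 mice (5 sets of 22206 genes), limma recovered 53.2% of genes changed by 1 and 94% of those changed by 2 on the log2 scale. The simulated noise was normal, independent between genes and of the same SD at both ages. In the real arrays the SD of Tubb5 was 0.26 at 8 weeks and 0.92 at 28 weeks, so these shares need not hold for the isotypes. Figures used matplotlib 3.10.9.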

Additional observations from a re-analysis of the deposited data

Results flagged for a closer look

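Of 40 groups of 4 arrays (the 10 isotypes and 10 other tubulins at each age), 3 held an array far from the others, where chance gives about 1 in 20. Tubb6 was 5.03 in 28-week replicate 7 and 6.87 to 7.12 in the other older mice. Tuba1a was 8.76 in 8-week replicate 3 and 9.02 to 9.07 in the other younger mice. Tuba3b was 4.71 in 8-week replicate 1 and 5.91 to 6.10 in the other younger mice.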

How the results depend on the processing

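The count of isotypes called higher was 4, and 4 or 5 under median centring, quantile normalization, ribosomal protein centring, both filters on dim probes, eBayes with trend and robust options and the mean of all rows of a gene. It was 6 with array weights, 7 without both 8-week replicate 1 and 28-week replicate 7 (which hold the only overlapping values of Tubb2a, which is among the 7), and 0 at an adjusted p under 0.01, and it ranged from 0 to 6 when 1 array was left out. The count called lower was 0 throughout. The number of probes called was 399 without the dimmest 50% of probes, 399 with trend and robust options, 873 with array weights, 1384 without both of those replicates and 18 at an adjusted p under 0.01, and it ranged from 25 to 1237 when 1 array was left out. Calls in the other microtubule and cytoskeleton lists numbered 1, and 3 with quantile normalization, 3 with ribosomal centring, 4 with the milder filter on dim probes, 5 without the dimmest 50%, 4 with trend and robust options, 17 with array weights, 32 without both replicates, 0 at 0.01 and 0 to 27 with 1 array left out. The stricter threshold and the smaller numbers of arrays or probes follow from how those alternatives are built. The mean of all rows left the isotype values as they were, since each had 1 probe. For the others the cause was not tested. The sign of Tubb3 turned without 28-week replicate 6 (-0.0042, with up to 0.24 when another array was left out), and no other isotype changed sign. No paired analysis was possible because the 2 ages share no replicate number. With 4 mice at each age, differences near those of Tubb3 and Tuba4a could not be told from 0.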
